A study of Mus musculus with 4 samples.

Results

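Lymphatic endothelial cells of the mouse Achilles tendon were compared with the blood endothelial cells of the same tissue. The lymphatic side held the 36 cells that the authors named endothelial cells 3, and the blood side the 264 cells that they named endothelial cells 1 (190 cells) and endothelial cells 2 (74 cells), together 300 of the 1191 cells measured. Libraries 1, 2, 3 and 4 gave 26, 4, 3 and 3 lymphatic cells and 124, 71, 39 and 30 blood cells. Counts were summed over the cells of a side within each library, which gave 4 lymphatic and 4 blood sums.

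The series is a catalogue of the cell populations of the Achilles tendon, made by droplet-based single-cell RNA sequencing in which each captured transcript carries a unique molecular identifier (UMI). Its 4 libraries form 1 group of male C57Bl/6 mice aged 6 weeks, and the comparison is between cell populations of the same libraries. How many mice went into each library is not given in the labels, and p-values therefore measure the spread between libraries. The populations are the authors' own and were formed from these counts, so the tests below ask how steady a difference was over the libraries and not whether the populations exist.

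Lymphatic capillaries drain fluid, macromolecules and immune cells from a tissue, and their endothelium is specified and maintained by the homeobox factor Prox1. It responds to the growth factor VEGF-C through the receptor tyrosine kinase Flt4 (VEGFR-3), and it releases the chemokine Ccl21, which guides dendritic cells through the receptor Ccr7. Capillary vessels carry the hyaluronan receptor Lyve1, whereas collecting vessels have valves, whose formation depends on the factor Foxc2, and little Lyve1.

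The depth of the lymphatic sums was low and uneven. They held 270015, 21579, 23993 and 11231 UMIs, against 1393227, 799672, 248928 and 384307 in the blood sums. A single UMI was thus worth 3.70, 46.3, 41.7 and 89.0 CPM (UMIs of a gene per 1000000 UMIs of the whole sum) in the lymphatic sums of libraries 1 to 4. The median cell held 5139.5 UMIs on the lymphatic side, 7343 in endothelial cells 1 and 8322.5 in endothelial cells 2. No barcode stood in more than 1 library. Markers of tendon fibroblasts, pericytes, leukocytes and Schwann cells together made up at most 0.450% of the UMIs of a lymphatic cell. Hemoglobin and muscle genes were not part of this share. In the lymphatic sums they took 0 to 890 CPM and 0 to 7.41 CPM.

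The label was checked with 4 markers of lymphatic endothelium, Ccl21a, Mmrn1, Prox1 and Flt4. Of the 36 cells, 19 had a UMI of all 4 markers, 9 of 3, 2 of 2, 5 of 1 and 1 of none. In endothelial cells 1 and 2 no cell had 3 or more of them. With every cell thinned to 2400 UMIs, which left out 4 lymphatic cells, Mmrn1 was found in 90.6% of the 32 lymphatic cells left, Prox1 in 90.6%, Flt4 in 75.0% and Ccl21a in 53.1%. In tendon fibroblasts, which should lack these transcripts and whose median depth was 9097.5 UMIs, the thinned shares were 0.282%, 0.563%, 0% and 0%. Without thinning, the lymphatic shares were 88.9%, 86.1%, 80.6% and 55.6%. The 6 cells with at most 1 marker had between 1192 and 5776 UMIs. All 6 had a UMI of Cldn5 and 1 had a UMI of Flt1.

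Lymphatic cells made up 17.3% of the endothelial cells in library 1 (26 of 150, exact Clopper-Pearson 95% interval 11.6 to 24.4), 5.33% in library 2 (4 of 75, 1.47 to 13.1), 7.14% in library 3 (3 of 42, 1.50 to 19.5) and 9.09% in library 4 (3 of 33, 1.92 to 24.3). The share was largest in library 1, and all 4 intervals overlapped. These intervals cover counting error and not the spread between mice or dissociations.

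Of 4780 genes that passed a filter on low counts, 755 (15.8%) differed between lymphatic and blood endothelium at an adjusted p under 0.05 (edgeR's quasi-likelihood test with the library as a block and Benjamini-Hochberg adjustment over all genes tested). Higher levels in lymphatic cells were found for 256 genes (5.36%) and lower levels for 499 (10.4%). Of these, 223 were higher and 441 were lower in every one of the 4 libraries. The median log2 fold change of all genes tested was -0.13. Of the genes called lower, 55 had no UMI in any lymphatic sum. A gene at or near 0 on 1 side could pass the filter only through the other side, so only 1 direction was open to it. This holds for the members of all lists below. Without library 1, which held most lymphatic cells, 2898 genes passed the filter and 331 were called, of which 316 were also among the 755. With the blood sums thinned to the UMI total of the lymphatic sum of their library, 335 genes passed the filter, and 54 were called higher and 46 lower. With every cell thinned to 2400 UMIs, 1093 genes passed, and 86 were called higher and 145 lower. Where leaving out a library ended the call of a gene named below, or moved the fitted fold change of a called gene by more than 1.5 times, the value without that library closes the paragraph. Genes that failed the filter without a library have no such value. Without library 1, 561 of the 755 were tested, so a gene without a closing value did not necessarily keep its call. The DESeq2 package called 513 genes, all 513 of them among the 755 and in the same direction.

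**Figure D1:**
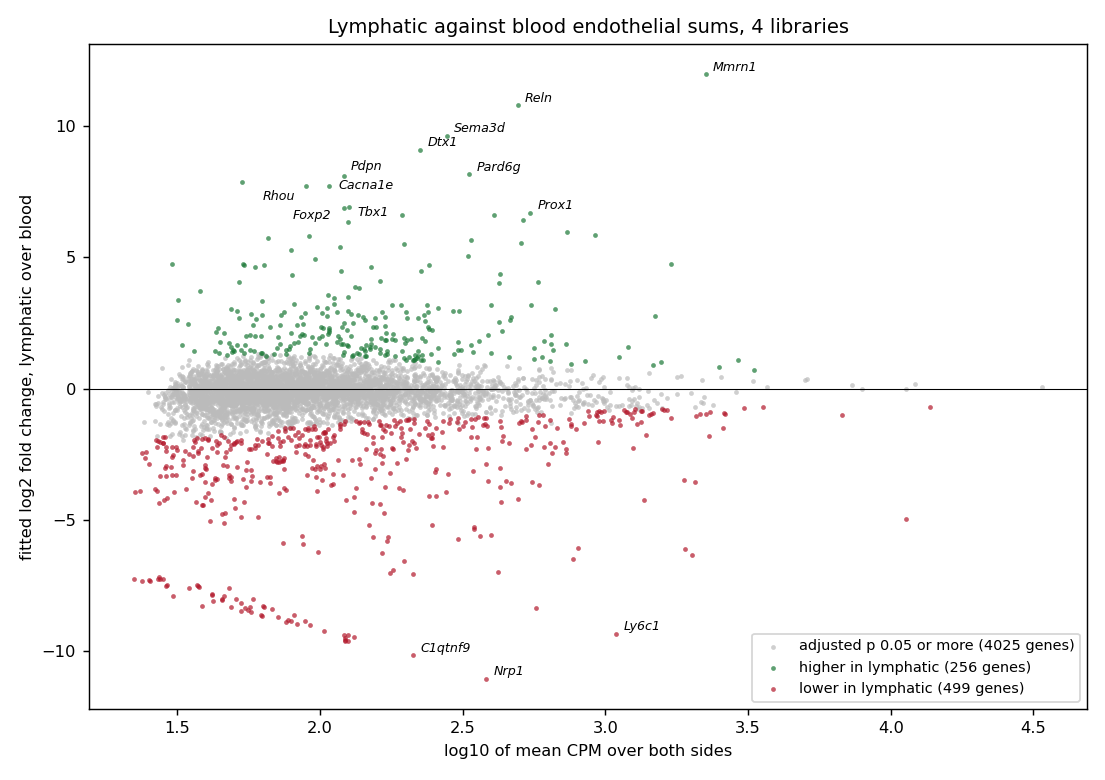
Fitted log2 fold change of lymphatic over blood sums (vertical axis) against the log10 of the mean CPM over both sides (horizontal axis) for the 4780 genes tested, with genes of an adjusted p under 0.05 in green (256 higher in lymphatic) and red (499 lower). Mmrn1 and Reln stand highest and Nrp1 lowest, and the slanted row of red points at the lower left is made of genes with 0 UMIs in the lymphatic sums, whose fitted fold depends on the prior count of the model.

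The largest fitted differences in each direction belonged to Mmrn1 and Reln, higher in lymphatic cells, and to Nrp1 and C1qtnf9, lower in them. The 250 bases before the transcription start are shown for the 2 largest rises and the 2 largest falls whose window lay outside the gene's own span in GENCODE M21 and any GENCODE exon, from RefSeq with the build GRCm38.p6. The windows of Mmrn1 and Nrp1 lay inside their GENCODE spans and are not shown. Capitals mark GGAAG or its reverse complement CTTCC, the core bound by ETS factors, a family that acts in all endothelium. This core stood 1 time each before Reln, the semaphorin gene Sema3d and the interferon-inducible gene Ifi203, and 2 times before C1qtnf9. Of all 32851 promoter windows of this length, 64.1% hold at least 1 match and 29.4% hold 2 or more, so a match describes the sequence and not a binding site.
Reln, chr5:22344706-22344955, minus strand: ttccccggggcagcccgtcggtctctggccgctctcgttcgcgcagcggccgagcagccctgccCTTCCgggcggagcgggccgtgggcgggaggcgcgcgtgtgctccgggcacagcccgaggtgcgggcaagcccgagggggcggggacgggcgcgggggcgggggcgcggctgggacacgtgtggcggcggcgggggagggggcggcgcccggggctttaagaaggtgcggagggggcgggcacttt
Sema3d, chr5:12382916-12383165, plus strand: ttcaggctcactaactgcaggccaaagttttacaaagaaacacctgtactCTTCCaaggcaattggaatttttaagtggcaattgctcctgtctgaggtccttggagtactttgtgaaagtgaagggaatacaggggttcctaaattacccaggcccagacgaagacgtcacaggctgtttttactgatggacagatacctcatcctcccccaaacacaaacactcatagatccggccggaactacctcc
C1qtnf9, chr14:60767884-60768133, plus strand: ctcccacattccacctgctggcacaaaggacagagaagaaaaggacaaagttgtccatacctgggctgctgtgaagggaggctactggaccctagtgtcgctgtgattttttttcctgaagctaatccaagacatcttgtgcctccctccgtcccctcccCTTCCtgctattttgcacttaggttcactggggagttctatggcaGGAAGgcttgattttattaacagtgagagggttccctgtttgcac
Ifi203, chr1:173942673-173942922, minus strand: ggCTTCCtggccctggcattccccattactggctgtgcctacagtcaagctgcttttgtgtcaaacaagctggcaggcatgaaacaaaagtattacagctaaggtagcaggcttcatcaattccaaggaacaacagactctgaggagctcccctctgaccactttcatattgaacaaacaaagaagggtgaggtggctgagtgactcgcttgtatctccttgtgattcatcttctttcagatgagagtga

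Mmrn1 encodes multimerin 1, a secreted glycoprotein of platelets and endothelium, and lies at chr6:60924976-60989378, plus strand (GENCODE M21, GRCm38, as for all genes placed below). Its lymphatic sums held 596, 44, 193 and 64 UMIs in libraries 1 to 4, and its blood sums 1, 0, 0 and 0. Every lymphatic sum was far above every blood sum, with a mean of 4497 ± 2905 CPM (SD, n = 4) against 0.179 ± 0.359 CPM. The log2 fold change was 11.99 ± 0.50 (SE), adjusted p = 4.4e-120. With 1 UMI on the blood side, the ratio of pooled CPM was 7757 (exact 95% interval 1389 to 306712). Mmrn1 stood at 12.75 on the log2 scale without library 1.

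Reln (chr5:21884454-22344702, minus strand) encodes reelin, a secreted glycoprotein best known for guiding neurons and also made by lymphatic endothelium. Its lymphatic sums held 137, 6, 48 and 13 UMIs, and no blood cell of any library held 1, so the pooled level was at least 588-fold higher in lymphatic cells, against a floor of 3 counts over the blood sums. The log2 fold change was 10.81 ± 0.67 (SE), adjusted p = 1.3e-54. Tendon fibroblasts were not free of Reln: 1.84% of them had a UMI, against 72.2% of lymphatic cells.

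Prox1 (chr1:190118035-190170714, minus strand), the factor that sets lymphatic identity, had 402, 38, 13 and 6 UMIs in the lymphatic and 18, 4, 3 and 3 in the blood sums, 1081 ± 637 against 9.44 ± 3.71 CPM (SD, n = 4). The groups did not overlap, and the log2 fold change was 6.70 ± 0.49 (SE), adjusted p = 1.8e-40. The blood counts of Prox1 were unequal between the blood populations, with means of 2.78 CPM in endothelial cells 1 and 29.1 CPM in endothelial cells 2. In endothelial cells 2, 12 of 74 cells (16.2%) had a Prox1 UMI, at most 4 in a cell, and these cells came from all 4 libraries. Of the 12, 11 also had a Vwf UMI, 11 a Flt1 UMI, 3 a Foxc2 UMI, 1 a Ccl21a UMI and none a Mmrn1 or Reln UMI. In endothelial cells 1 the share was 5 of 190 (2.63%) and in tendon fibroblasts 1.58%. With cells thinned to 2400 UMIs it was 4.35% in endothelial cells 2, 0.568% in endothelial cells 1 and 0.563% in tendon fibroblasts, which are 3, 1 and 2 cells.

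Flt4 (chr11:49609263-49652739, plus strand), the receptor for VEGF-C, was higher in every lymphatic sum but not absent from blood endothelium. It had 213, 8, 34 and 8 UMIs in the lymphatic and 34, 39, 4 and 15 in the blood sums, 822 ± 436 against 32.1 ± 14.6 CPM (SD, n = 4), with a log2 fold change of 4.36 ± 0.41 (SE), adjusted p = 4.9e-24. Its mean level was 43.7 CPM in endothelial cells 1, where 28.4% of cells had a UMI, and 6.26 CPM in endothelial cells 2, where 6.76% had one.

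Ccl21a (chr4:42772860-42773993, minus strand) had 870, 56, 276 and 0 UMIs in the lymphatic sums, or 3222, 2595, 11503 and 0 CPM, and 2, 1, 0 and 0 in the blood sums. Too few of its 8 sums reached the minimum count of the filter, so it has no test in the fit above. Fitted without the filter, its log2 fold change was 10.82, adjusted p = 1.9e-65. The 3 lymphatic cells of library 4 had 64 UMIs of Mmrn1 and none of Ccl21a, and at the depth of their sum a count of 0 allows up to 267 CPM. Ccl21a was at 0 in all 109 cells of library 4, and library 4 held 252 genes found in 1 or 2 cells against 698 found in exactly 3, so whether rarely found genes were removed from a library before deposit is not known. Counts of Ccl21a are also uncertain because its transcript differs from that of the copy Gm21541 at 6 of 870 bases. Gm21541 itself had 27, 0, 18 and 0 UMIs in the lymphatic sums and none in the blood sums.

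**Figure D2:**
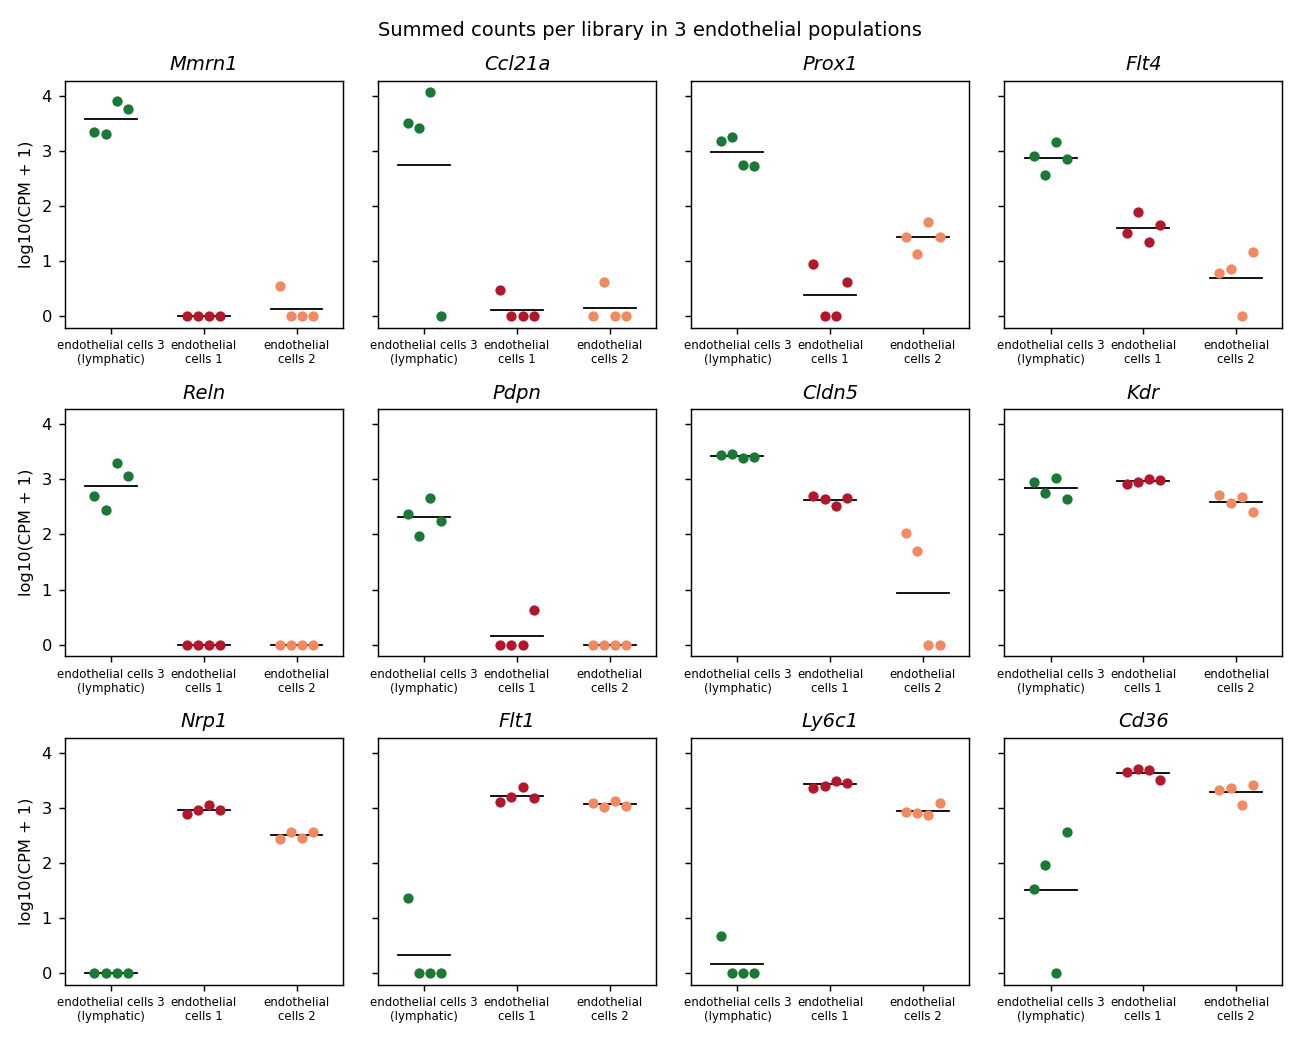
Level of 12 genes, as log10(CPM + 1), in the sums of endothelial cells 3 (green), endothelial cells 1 (red) and endothelial cells 2 (orange), with 1 point for each of the 4 libraries in order and a black line at their mean on this scale. Mmrn1, Prox1, Reln and Pdpn are high in all 4 lymphatic sums and Ccl21a in 3 of them, Nrp1, Flt1 and Ly6c1 are at or near 0 there, and Kdr has means of 729, 927 and 406 CPM in the populations from left to right.

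The wider list of 36 lymphatic identity genes includes the 4 check markers, of which 3 were tested and rose. Of the 36 genes, 20 passed the filter on low counts, and of these 17 rose, 1 fell (5.36% and 10.4% over all genes) and 2 did not pass the test. Their median log2 fold change was 4.93, against -0.13 over all genes. Members nearly absent from the blood sums, such as Reln, passed the filter only through the lymphatic sums and could only rise. Pdpn, which encodes podoplanin, a membrane glycoprotein that binds CLEC-2 on platelets, had 64, 2, 11 and 2 lymphatic UMIs and 1 blood UMI, and its log2 fold change was 8.11, adjusted p = 8.4e-26. Pard6g, a cell polarity protein, was at 665 ± 394 against 1.19 ± 1.38 CPM (SD, n = 4), a log2 fold change of 8.18. Maf, a transcription factor, was at 1814 ± 1098 against 20.6 ± 5.74 CPM (5.85), Cp, which encodes the copper oxidase ceruloplasmin, at 1454 ± 367 against 17.9 ± 6.47 CPM (5.96), and the surface protein Thy1 at 388 ± 174 against 6.26 ± 4.61 CPM (5.50). Stab1, a scavenger receptor, rose by 3.18 and Itga9, the integrin subunit needed for lymphatic valves, by 2.81 on the log2 scale. Lbp, which encodes a protein that binds bacterial lipopolysaccharide, rose by 3.04, and its blood counts came mainly from endothelial cells 2, at 358 CPM against 4.73 CPM in endothelial cells 1. Itih5, an inhibitor family protein of the matrix, went the other way at 54.0 ± 103 against 429 ± 187 CPM (-4.11, adjusted p = 2.7e-10). Gata2 and Nrp2 did not pass the test, with log2 fold changes of -0.29 and 0.48. Itih5 did not pass the test without library 4 (-4.00, adjusted p = 0.067). Thy1 stood at 6.20 on the log2 scale without library 1. Pdpn stood at 7.08 without library 1 and 9.47 without library 4. Itih5 stood at -2.29 without library 1 and -6.44 without library 3.

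Several defining genes of the list were too unevenly counted for the test. Lyve1 had 268, 0, 87 and 0 lymphatic UMIs and 5 blood UMIs, Nts, which encodes the peptide neurotensin, 197, 27, 0 and 0 and 0, and Cldn11, which encodes a claudin of tight junctions, 54, 0, 0 and 0 and 5. Foxc2 had 46, 4, 1 and 0 lymphatic UMIs and 3, 2, 1 and 0 blood UMIs, with all of the latter in endothelial cells 2. Il7, a cytokine that supports T cells, had 21, 0, 0 and 2 lymphatic UMIs and 0 blood UMIs. Lyve1 was counted in other cells of libraries 2 and 4, so its zeros there are counts, whereas Nts was at 0 in all cells of libraries 3 and 4.

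The lymphatic cells were not alike. Lyve1 UMIs were found in 9 of the 36 cells, which were 6 of 26 in library 1, all 3 in library 3 and none of the 4 and 3 in libraries 2 and 4. All 9 of these had Ccl21a and Reln UMIs. Among the 27 cells without Lyve1, 11 had Ccl21a, 15 Foxc2 and 12 Nts. Pooled, cells without Lyve1 held 202 CPM of Foxc2 against 69.9 CPM in cells with Lyve1. The latter value rests on 8 UMIs, 5 of them in 1 cell. The share of cells with a Foxc2 UMI was 55.6% without and 44.4% with Lyve1. Cldn11 was at 226 against 52.4 CPM, but 20 of its 48 UMIs in cells without Lyve1 lay in 1 cell, and the share of cells with a Cldn11 UMI was 33.3% without and 44.4% with Lyve1. Nts was at 452 CPM without and 1118 CPM with Lyve1, where 1 cell held 87 of 128 UMIs. Mmrn1 differed less, with 2369 CPM in cells without and 3442 CPM in cells with Lyve1, and Prox1 stood at 1361 and 1485 CPM. These are single cells of few libraries, so the values carry no test.

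Within the Lyve1 cells, 3 cells of library 1 stood apart. They held 47 to 121 UMIs of Fn1 (fibronectin), 10 to 87 of Nts and 2 to 19 of Ccl21a each, at 11568 to 36416 UMIs of all genes. The other 6 held 0 or 1 UMI of Fn1, none of Nts and 14 to 236 of Ccl21a, at 3987 to 13196 UMIs. The limit of 10 Fn1 UMIs that separates them was set after their values were seen.

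**Figure D3:**
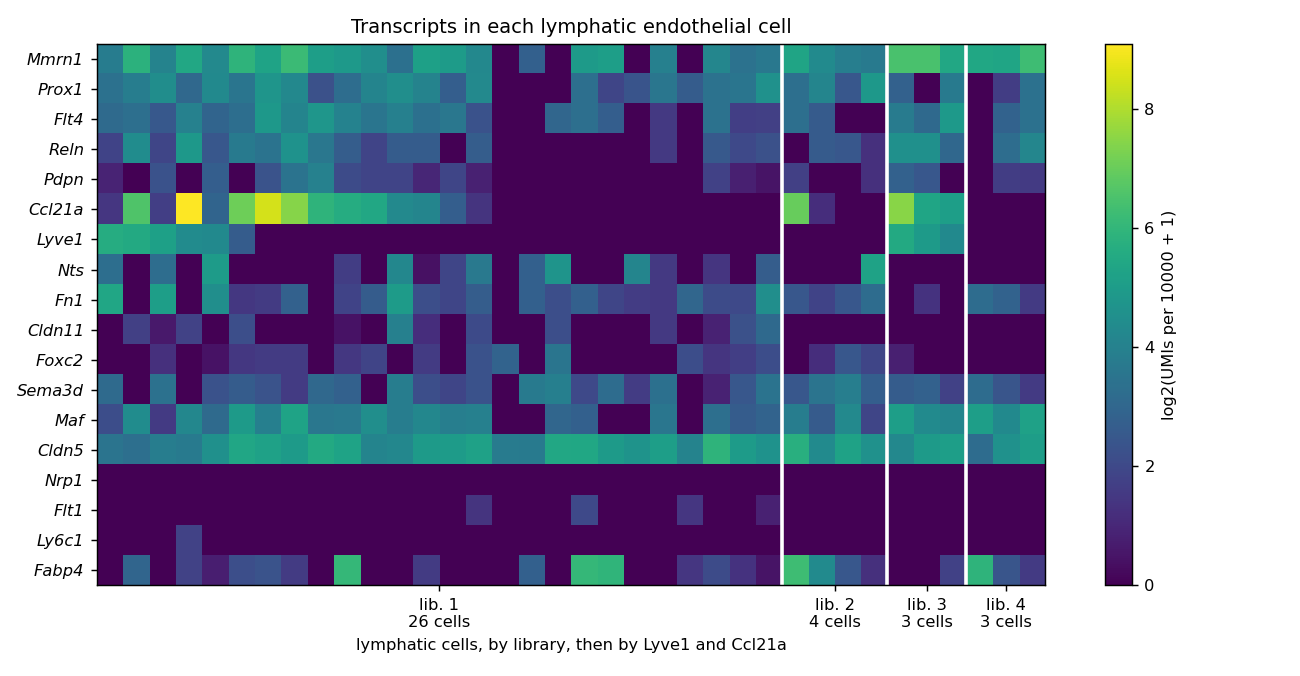
Transcripts of 18 genes in the 36 lymphatic cells, as log2(UMIs per 10000 + 1), with 1 column for each cell, ordered by library and then by Lyve1 and Ccl21a. Cldn5 is found in every column, Lyve1 in 9 cells of libraries 1 and 3 together, Ccl21a in 20 cells and in none of library 4, and the row of Nrp1 is empty.

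Among the 12 genes with the largest rises, those not yet described included a guidance cue, a Notch pathway gene, a channel, a small GTPase and transcription factors. Sema3d, a secreted semaphorin, had 156, 17, 12 and 4 lymphatic UMIs and 1 blood UMI, and a log2 fold change of 9.63 ± 0.64 (SE), adjusted p = 4e-47. Dtx1, an E3 ligase that acts on Notch signaling, had 76, 14, 8 and 6 and 1 (9.10, adjusted p = 2.2e-36). Cacna1e, the alpha subunit of a voltage-gated calcium channel, had 27, 5, 2 and 5 and 1 (7.74, adjusted p = 2.4e-34), and the GTPase Rhou had 35, 5, 2 and 3 and 1 (7.73, adjusted p = 1.2e-36). These genes were chosen for a higher level in every library, so their UMIs in each of the 4 lymphatic sums follow from the choice. No lymphatic sum of theirs overlapped a blood sum. Dtx1 stood at 9.79 on the log2 scale without library 2.

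Transcription factors moved in both directions. Of the 38 genes, 31 passed the filter on low counts, and of these 8 rose, 7 fell (5.36% and 10.4% over all genes) and 16 did not pass the test. The median was -0.19, beside -0.13 over all genes, and 1 of the 8 that rose, Tfpi, encodes a coagulation inhibitor and stood in the list in error. Beside Prox1 and Maf, the genes that rose included Tbx1 (251 ± 88.8 against 1.50 ± 1.15 CPM, SD, n = 4, log2 fold change 6.93), Foxp2 (240.3 ± 155 against 1.68 ± 1.69 CPM, 6.88), the forkhead factor Foxc1 (1.71) and Nr2f2 (1.15). Nr2f2, the venous factor COUP-TFII with which Prox1 acts, was at 848 ± 538 CPM in lymphatic sums, and its level in endothelial cells 2, 622 ± 75.3 CPM, was closer to this than that in endothelial cells 1, 146 ± 44.2 CPM. Factors that fell included Sox17 (4, 0, 0 and 0 lymphatic UMIs, -4.70, adjusted p = 6.3e-11), which marks arterial endothelium, Meox2 and Tcf15 (0 and 2 lymphatic UMIs), which act in capillary endothelium of muscle and heart, the hypoxia factor Epas1 (-2.46), the flow-induced factor Klf2 (-1.31) and the lipid-sensing nuclear receptor Pparg (-2.01). The lymphatic and blood sums overlapped for Nr2f2, Klf2 and Pparg. Mecom, a zinc finger factor outside the list, had no UMI in lymphatic sums against 289, 173, 88 and 106 in blood sums, at least 25.3-fold lower. Nr2f2 did not pass the test without library 1 (1.41, adjusted p = 0.07), 3 (0.89, adjusted p = 0.23) and 4 (0.76, adjusted p = 0.25), Foxc1 without library 4 (1.24, adjusted p = 0.11) and Klf2 without library 1 (-1.21, adjusted p = 0.076). Pparg did not pass the test without library 1 (-1.11, adjusted p = 0.6) and 3 (-1.83, adjusted p = 0.063). Sox17 stood at -8.89, Meox2 at -7.86 and Tcf15 at -9.55 on the log2 scale without library 1. Pparg stood at -2.61 on the log2 scale without library 2.

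Receptors for vascular growth factors split by family member. Nrp1 (chr8:128358604-128503363, plus strand), a coreceptor for VEGF-A and class 3 semaphorins, had no UMI in any of the 36 lymphatic cells and 875, 548, 230 and 314 UMIs in the blood sums, so it was at least 75.8-fold lower, with a log2 fold change of -11.05 ± 1.02 (SE), adjusted p = 2.9e-25. Fitted values against a side at 0, such as this one, depend on the prior count and are no bound. Flt1, a VEGF-A receptor that acts largely as a decoy, had 6, 0, 0 and 0 lymphatic and 1744, 1072, 531 and 549 blood UMIs (-6.50 ± 0.51 (SE), adjusted p = 5.4e-34). Kdr, the main signaling receptor for VEGF-A, which also binds processed VEGF-C, had 236, 12, 25 and 5 and 1027, 544, 220 and 326 UMIs, or 729 ± 277 against 787 ± 94.9 CPM (SD, n = 4), and did not pass the test (-0.32, adjusted p = 0.69). Of the 8 receptor genes, all tested, 1 rose (Flt4) and 3 fell (Nrp1, Flt1 and the receptor phosphatase Ptprb, -2.24), beside 5.36% and 10.4% over all genes. The other 4 did not pass, which beside Kdr were Nrp2 (0.48), Tie1 (0.37) and Tek (-0.64), the receptor for angiopoietins. Among 12 ligand genes of these receptors, 1 was tested: Angpt2, a ligand of Tek, rose by 2.91 ± 0.49 (SE), adjusted p = 1.1e-07, with 107, 7, 2 and 0 lymphatic and 41, 31, 7 and 7 blood UMIs and an overlap in library 4, where the lymphatic sum was at 0. Vegfc itself had 0 lymphatic and 61 blood UMIs and was not tested. Flt1 stood at -11.72 on the log2 scale without library 1.

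Most tested genes of blood endothelium fell. Of the 30 genes, 26 passed the filter on low counts, and of these 0 rose, 21 fell (5.36% and 10.4% over all genes) and 5 did not pass the test. Their median was -4.17, or -3.81 with genes at 0 set at their bound. Members at or near 0 in the lymphatic sums, such as Nrp1 and Ly6c1, passed the filter only through the blood sums and could only fall. Ly6c1, a GPI-anchored surface protein of capillary endothelium, had 1, 0, 0 and 0 lymphatic UMIs and 2652, 1427, 630 and 968 blood UMIs, a ratio of pooled CPM of 656 (exact 95% interval 118 to 25935) and a log2 fold change of -9.35 ± 0.62 (SE), adjusted p = 5.6e-48. Its relative Ly6a also had 1 lymphatic UMI, against 1139.9 ± 283 CPM in blood sums (SD, n = 4). Sparcl1 was at 27.6 ± 21.1 against 1573 ± 128 CPM, the chemokine Cxcl12 at 37.5 ± 43.8 against 3989 ± 1074 CPM and the sialomucin Cd34 at 18.8 ± 21.9 against 489.6 ± 61.0 CPM. Plvap, which forms the diaphragms of fenestrae and caveolae, fell less (-2.04) and was still at 407 ± 313 CPM in lymphatic sums. Among those that did not pass the test were Kdr and Robo4 (-0.96), a receptor that stabilizes vessels, which did pass without the library block (adjusted p = 0.034). Ly6c1 stood at -12.14, Ly6a at -11.23, Cxcl12 at -7.05, Cd34 at -5.05 and Plvap at -2.85 on the log2 scale without library 1.

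Pericyte transcripts moved with the blood side and stand beside these values. The 12 pericyte and smooth muscle markers together took 41.7 to 356 CPM in the lymphatic sums and 767 to 1756 CPM in the blood sums. The 2 of them that were tested both fell, beside 10.4% over all genes. Rgs5 had 0, 0, 0 and 1 lymphatic and 623, 108, 37 and 237 blood UMIs. Tagln had 3, 2, 0 and 0 and 906, 536, 128 and 321. Des, Myh11 and Pdgfrb had no lymphatic UMI. The 12 tendon fibroblast markers took 415 to 1425 CPM in lymphatic and 193 to 767 CPM in blood sums, where the matrix protein gene Comp rose (2.70, adjusted p = 2.4e-07) and the other 4 tested did not pass. Ptprc, which defines leukocytes, had no UMI on either side, and the 12 leukocyte markers had 8 lymphatic UMIs in all. The part of these transcripts in the differences was not tested. Rgs5 stood at -4.02 without library 1 and -10.54 without library 4. Tagln stood at -4.42 without library 1 and -6.18 without library 2.

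Transcripts for fatty acid and solute uptake by capillaries were low in lymphatic cells. Of the 20 genes, 16 passed the filter on low counts, and of these 0 rose, 15 fell (5.36% and 10.4% over all genes) and 1 did not pass the test. The median was -4.60, or -3.79 with genes at 0 set at their bound. Members at or near 0 in the lymphatic sums, such as Aqp7, could again only fall. Fabp4, a cytosolic fatty acid carrier, was the most abundant, with 251, 51, 1 and 10 lymphatic UMIs against 33381, 19836, 4493 and 7542 in blood sums, or 1056 ± 963 against 21609.7 ± 3284 CPM (SD, n = 4, -4.97, adjusted p = 0.00039). Of the lymphatic UMIs of Fabp4, 181 in library 1 and 34 in library 2 lay in 1 cell each, and the median lymphatic cell held 1. Cd36, the fatty acid translocase, had 9, 2, 0 and 4 and 5261, 3149, 987 and 1172 UMIs (-6.11, adjusted p = 2.8e-48). Aqp7, which passes glycerol, had none in lymphatic sums and 254, 193, 66 and 52 in blood sums, at least 21.8-fold lower. Gpihbp1, which carries lipoprotein lipase across the endothelium, kept 318 ± 301 CPM in lymphatic sums against 1101 ± 302 CPM (-2.02). The gene that did not pass the test was Slc2a1, a glucose transporter (0.33). Cd36 stood at -5.25 without library 1 and -6.86 without library 4.

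**Figure D4:**
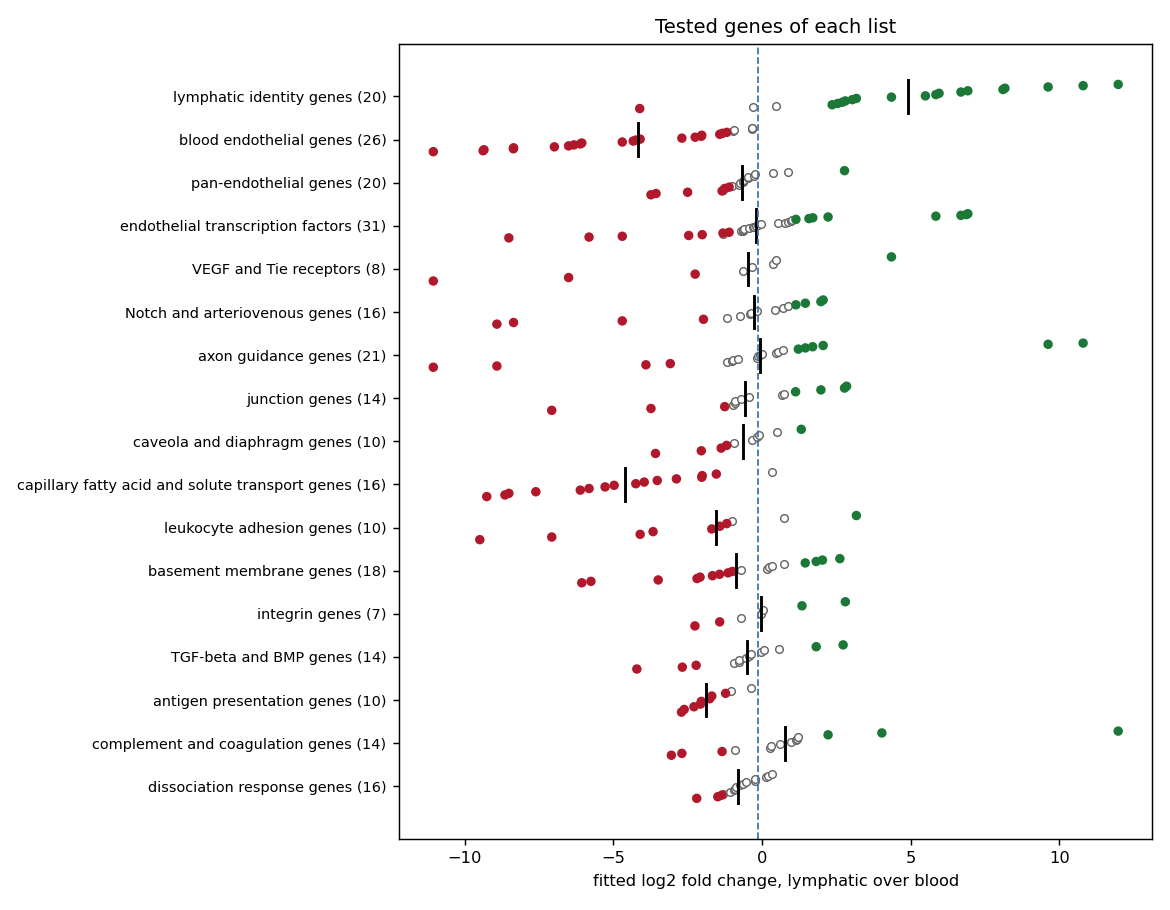
Fitted log2 fold change of lymphatic over blood sums for the tested genes of 17 lists (number of tested genes in brackets), with genes that rose in green, genes that fell in red, genes that did not pass in open circles, a black bar at the median of the list and a dashed line at the median of all genes, -0.13. Lymphatic identity genes lie mostly to the right, blood endothelial and capillary transport genes to the left, and the transcription factor, Notch and axon guidance lists on both sides.

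Most genes shared by all endothelium did not pass the test, which does not show that they were equal on both sides. Of the 20 genes, 20 passed the filter on low counts, and of these 1 rose, 6 fell (5.36% and 10.4% over all genes) and 13 did not pass the test, with a median of -0.68. Their summed level was 9037 to 11397 CPM in lymphatic and 10724 to 12460 CPM in blood sums. Cldn5, the main claudin of endothelial tight junctions, rose, with 2658 ± 212 against 326 ± 65.1 CPM (SD, n = 4) and a log2 fold change of 2.78 ± 0.30 (SE), adjusted p = 2.5e-18, and its level was 434 CPM in endothelial cells 1 and 38.7 CPM in endothelial cells 2. Esam, an adhesion molecule of tight junctions, and Cd93, a C-type lectin receptor, fell by more than the others, from 799 ± 87.0 to 53.3 ± 67.0 CPM and from 1012 ± 155 to 93.6 ± 131 CPM. Cdh5, which encodes VE-cadherin, fell by 1.25, adjusted p = 0.001, on the log2 scale. Pecam1 (-0.72), Erg (-0.59) and Sox18 (-0.62) did not pass the test, although Pecam1 did without the library block (adjusted p = 0.039). Cdh5 did not pass the test without library 3 (-1.06, adjusted p = 0.057).

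Junction genes besides Cldn5 also went both ways. Of the 21 genes, 14 passed the filter on low counts, and of these 4 rose, 3 fell (5.36% and 10.4% over all genes) and 7 did not pass the test. Cgnl1, a cingulin relative of tight junctions, rose from 25.2 ± 6.11 to 231 ± 85.9 CPM (SD, n = 4, 2.85, adjusted p = 3.1e-07), and the gap junction gene Gja4 rose by 1.99 on the log2 scale. Jam2, a junctional adhesion molecule, had 1, 0, 0 and 0 lymphatic UMIs against 557, 353, 119 and 143 (-7.07, adjusted p = 7.4e-17). Of 13 caveola and diaphragm genes, 10 passed the filter on low counts. Of these 1 rose, 4 fell (5.36% and 10.4% over all genes) and 5 did not pass the test, with a median of -0.63. Against endothelial cells 2 alone the median was -0.11, and 2 rose and 4 fell (6.07% and 12.5% over all genes). Cav1 fell by 1.37 and Cavin1 by 1.19 on the log2 scale, and Pacsin2 rose by 1.33. Gja4 did not pass the test without library 3 (1.48, adjusted p = 0.095) and Pacsin2 without library 1 (1.43, adjusted p = 0.14) and 3 (1.15, adjusted p = 0.16). Jam2 stood at -9.78 on the log2 scale without library 1.

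Notch and arteriovenous genes did not follow 1 side. Of the 22 genes, 16 passed the filter on low counts, and of these 4 rose, 4 fell (5.36% and 10.4% over all genes) and 8 did not pass the test, with a median of -0.27. Efnb2, which encodes ephrin-B2, known from arteries and from lymphatic valves, rose from 146 ± 22.6 to 476 ± 51.7 CPM (SD, n = 4, 1.46, adjusted p = 0.00086). Unc5b, a netrin receptor, rose by 2.06, with 94 of its 98 lymphatic UMIs in library 1. Notch4 and Sema3g had no lymphatic UMI, against 138, 94, 29 and 40 and 215, 102, 16 and 101 in blood sums. The ligands Dll4 (0.70) and Jag1 (-0.75) and the receptor Notch1 (0.44) did not pass the test. In the list of axon guidance genes, 6 of 21 tested rose and 4 fell (5.36% and 10.4% over all genes), and Plxna4, a coreceptor for class 3 semaphorins, was among those that rose (1.71, adjusted p = 0.0055). Plxna4 did not pass the test without library 2 (1.39, adjusted p = 0.053).

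Basement membrane and matrix genes went both ways, also within families. Of the 20 genes, 18 passed the filter on low counts, and of these 4 rose, 9 fell (5.36% and 10.4% over all genes) and 5 did not pass the test, with a median of -0.86. The median was -0.58 against endothelial cells 1 alone, where 3 rose and 6 fell (7.33% and 13.3% over all genes). It was 0.08 against endothelial cells 2 alone, where 5 rose and 7 fell (6.07% and 12.5% over all genes). Among laminin chains, Lama4 rose from 137 ± 30.4 to 639 ± 179 CPM (SD, n = 4, 2.04, adjusted p = 6.1e-07) and Lamb1 from 149.6 ± 41.1 to 460.1 ± 65.2 CPM, whereas Lama5 fell from 152 ± 35.1 to 22.7 ± 26.2 CPM. Among collagens, Col18a1, the source of endostatin, rose from 109.9 ± 50.7 to 818 ± 246 CPM, while Col4a1 and Col4a2, the chains of the main basement membrane network, fell by 1.14 and 1.42 on the log2 scale and Col15a1 had 3, 0, 0 and 0 lymphatic UMIs against 522, 544, 120 and 338. Sparc, a collagen-binding protein, fell from 3416 ± 148 to 359 ± 248 CPM, and the heparan sulfate proteoglycan Hspg2 from 737 ± 109 to 184 ± 73.2 CPM. Fn1 rose by 1.83, but 360 of its 377 lymphatic UMIs lay in library 1, of which 229 were in the 3 cells described above, and in library 3 the lymphatic sum was below the blood sum. In the fit without the library block, Fn1 and Col4a1 did not pass the test (adjusted p = 0.065 and 0.051). Lamb1 did not pass the test without library 1 (1.44, adjusted p = 0.0504), Lama5 without library 1 (-3.34, adjusted p = 0.055) and Col4a1 without library 2 (-0.65, adjusted p = 0.16) and 4 (-1.08, adjusted p = 0.1). Col4a2 did not pass the test without library 4 (-1.09, adjusted p = 0.051) and Fn1 without library 1 (0.92, adjusted p = 0.4) and 4 (2.19, adjusted p = 0.14). Col4a2 stood at -2.04 and Col15a1 at -10.33 on the log2 scale without library 1.

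Among genes of TGF-beta and BMP signaling, most did not pass the test. Of the 21 genes, 14 passed the filter on low counts, and of these 2 rose, 3 fell (5.36% and 10.4% over all genes) and 9 did not pass the test. The receptor Tgfbr2 rose from 226 ± 66.4 to 991 ± 356 CPM (SD, n = 4, 1.83, adjusted p = 3.5e-06), and the ligand Tgfb2 from 23.4 ± 15.5 to 148 ± 96.2 CPM. Id1, a target of BMP signaling, had 16, 1, 1 and 1 lymphatic UMIs against 1342, 797, 173 and 405 (-4.20, adjusted p = 2.2e-17), and Id3 and the inhibitor Smad7 fell by 2.21 and 2.68 on the log2 scale. The receptors Eng (-0.76) and Acvrl1 (-0.79) did not pass the test. Smad7 did not pass the test without library 1 (-2.36, adjusted p = 0.052).

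Genes for the capture of leukocytes were low. In the list of 18 leukocyte adhesion genes, 10 passed the filter, 7 fell (10.4% over all genes) and 1 rose, Stab1 (5.36% over all genes). Selp, which encodes P-selectin, had no lymphatic UMI and 293, 282, 86 and 27 in blood sums, almost all of them in endothelial cells 2 (850.0 ± 440.4 against 7.73 ± 7.89 CPM in endothelial cells 1). Icam1 fell by 1.68, and Ackr1, a chemokine scavenger of venules, had no lymphatic UMI. In the fit without the library block, Selp and Ackr1 did not pass the test (adjusted p = 0.15 and 0.19). Cd200, an inhibitory ligand for myeloid cells, fell from 1073 ± 260.3 to 93.8 ± 86.0 CPM. Entpd1 (CD39), which degrades extracellular ATP, and the apelin receptor Aplnr had no lymphatic UMI either, which puts Entpd1 at least 26.3-fold and Aplnr at least 26.1-fold lower. Icam1 did not pass the test without library 3 (-1.44, adjusted p = 0.051). Icam1 stood at -3.52 and Entpd1 at -8.98 on the log2 scale without library 1.

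Most antigen presentation genes that were tested were lower in lymphatic cells. Of the 18 genes, 10 passed the filter on low counts, and of these 0 rose, 8 fell (5.36% and 10.4% over all genes) and 2 did not pass the test, with a median of -1.90. The class I heavy chain H2-K1 stood at 289 ± 65.2 against 986 ± 54.0 CPM (SD, n = 4, -2.06, adjusted p = 3.2e-07) and its partner B2m at 317 ± 285 against 1137 ± 71.1 CPM (-2.28, adjusted p = 7.3e-09). The immunoproteasome subunits Psmb8 and Psmb9 fell by 2.70 and 2.61 on the log2 scale. Some of the 12 largest falls were genes known to be induced by interferon. No list of such genes was counted, so how this group behaved over all genes is not known. Rsad2 (viperin), Ifi203, Mndal and AW112010 had no lymphatic UMI, against 272, 214, 58 and 117, 346, 179, 65 and 93, 341, 178, 66 and 103 and 213, 121, 60 and 75 in blood sums. Ifi203 and Mndal belong to 1 family of similar genes in a cluster, so how reads were split between them is uncertain. C1qtnf9, a secreted relative of adiponectin, was also at 0, against 461, 337, 148 and 136, at least 41.7-fold lower. Psmb8 did not pass the test without library 1 (-3.04, adjusted p = 0.11). Ifi203 stood at -8.93 and Mndal at -8.97 on the log2 scale without library 1.

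Genes of coagulation and of complement were mixed, with 3 of 14 tested genes higher, Mmrn1 among them, and 3 lower (5.36% and 10.4% over all genes) and a median of 0.79. Against endothelial cells 1 alone 8 of 16 tested rose and 3 fell (7.33% and 13.3% over all genes). Against endothelial cells 2 alone 4 rose and 3 fell (6.07% and 12.5% over all genes). Serpine2, an inhibitor of thrombin and other proteases, rose from 35.5 ± 19.9 to 813 ± 319 CPM (SD, n = 4, 4.04, adjusted p = 3.6e-24), and Tfpi, an inhibitor of the tissue factor pathway, from 26.0 ± 10.2 to 189.5 ± 76.8 CPM, while Vwf, which tethers platelets, fell from 332 ± 128 to 70.0 ± 58.8 CPM. Serpine2 stood at 4.85 on the log2 scale without library 1.

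Immediate early and heat shock genes that respond to tissue dissociation were also counted. Of 16, all tested, none rose and 3 fell (Junb, Nr4a1 and Socs3), beside 5.36% and 10.4% over all genes. Their summed level was 2292 to 22522 CPM in lymphatic and 6643 to 9273 CPM in blood sums, and the highest lymphatic value belonged to library 2, where the heat shock gene Hspa1a alone had 104 of 21579 UMIs, 87 of them in 1 cell. Junb did not pass the test without library 1 (-1.36, adjusted p = 0.07) and 3 (-1.04, adjusted p = 0.074), Nr4a1 without library 1 (-2.63, adjusted p = 0.058) and Socs3 without library 1 (-3.06, adjusted p = 0.1), 3 (-1.33, adjusted p = 0.15) and 4 (-1.40, adjusted p = 0.055).

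Because the blood side was mostly endothelial cells 1, each blood population was also set against the lymphatic cells on its own in a fit of all 3 populations. These comparisons share the lymphatic sums. Against endothelial cells 1, 1003 of 4856 genes were called (20.7%), 356 higher (7.33%) and 647 lower (13.3%) in lymphatic cells. Against endothelial cells 2, 901 were called (18.6%), 295 higher (6.07%) and 606 lower (12.5%). Mmrn1, Reln, Prox1 and Nrp1 were called in both, at 12.50, 10.27, 7.88 and -10.74 against endothelial cells 1 and 10.51, 10.06, 5.55 and -9.28 against endothelial cells 2.

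Other genes gave unlike values against the 2 blood populations. Vwf was -0.56, adjusted p = 0.51 against endothelial cells 1 and -4.20, adjusted p = 2.4e-20 against endothelial cells 2, in which it is highest. Nr2f2 was 2.07, adjusted p = 4.9e-10 and -0.11, adjusted p = 0.89, and Foxc1 2.90, adjusted p = 4.2e-09 and 0.18, adjusted p = 0.86. Gja4, which had no UMI in endothelial cells 2, was 1.57, adjusted p = 0.00092 and 8.49, adjusted p = 2.5e-13. Gpihbp1 was -2.24, adjusted p = 1.6e-07 against endothelial cells 1 and 0.04, adjusted p = 0.96 against endothelial cells 2, and Icam1 -0.06, adjusted p = 0.96 and -2.89, adjusted p = 5e-13. The contrast of endothelial cells 2 against endothelial cells 1 in the same fit follows from these 2 values. It was 3.64 for Vwf, 2.17 for Nr2f2, 2.72 for Foxc1, -6.92 for Gja4, -2.29 for Gpihbp1 and 2.83 for Icam1 on the log2 scale. The 6 genes were named because their values were unlike, so this contrast is no separate test.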

How the data were processed

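The deposited table of the authors holds raw UMI counts of 15750 gene entries in 1191 cells of 4 libraries, and a deposited table of cells gives each cell's library, its UMI count and the population name used here. Cell Ranger, Seurat 2.3.4, R 3.5.2 and mm10 are named in the submitters' processing notes, and which cell and gene filters the authors applied is not given in the sources used here. The deposited normalized values were not used. Whether doublets were removed is not stated, and no doublet caller was run. Of the entries, 4 under a repeated gene name (0.0186% of UMIs) were dropped, which left 15746. The UMI counts recorded for a cell exceeded the sum of the table by up to 650 (median 9).

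Counts were summed per side and library and tested with edgeR 4.0.16 in R 4.3.3 (filterByExpr, TMM scaling, robust quasi-likelihood fit, Benjamini-Hochberg adjustment over all genes tested, threshold 0.05). The library entered as a block because both sums of a library come from the same cell suspension. Deviations of the lymphatic and blood sums of a library from their side's mean correlated at -0.0228 to 0.0303 over 4780 genes. A fit of 12 sums set each blood population against the lymphatic cells. The fits were tested on simulated counts.

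Members and gene lists were chosen with earlier results of these data known. Besides list members, the text names the 12 genes that rose most and the 12 that fell most. These had to pass the threshold of 0.05, move the same way in each of 4 libraries and reach a mean of 100 CPM where they were higher; 1 of them is not reported here. Where a side was at 0, the fold was taken from a floor of 3 counts summed over its libraries. Floors and 95% intervals cover counting error only. DESeq2 1.42.0, limma 3.58.1, other scaling, no filter, no block, left-out libraries, thinned counts, a split of the UMIs into a portion for clustering and a portion for testing, and other weights of the blood populations were tried as alternatives. Tables and figures were made with Python 3.11.15, pandas 2.3.3, scipy 1.17.1, scikit-learn 1.9.0 and matplotlib 3.10.9.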

Additional observations from a re-analysis of the deposited data

Results flagged for a closer look

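In groups of 4 libraries, the lowest or highest value was singled out where its gap to the next, divided by the range, passed Dixon's critical value. Of 29 such groups, 1 passed, and chance alone gives about 1 in 20. It was Pard6g in the lymphatic sums, where library 3 stood at 1250.4 CPM, above 548, 417 and 445 CPM in libraries 1, 2 and 4. The value of library 3 rests on 30 UMIs in 3 cells, and the lowest lymphatic value was still above the blood sums, which reached at most 2.60 CPM.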

How the results depend on the processing

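The count of genes called, 755, varied with the test, and with depth and the number of genes tested, which thinning changed together. It was 1250 with limma-voom, 1212 of 14413 genes without the filter on low counts, 479 of 2653 with endothelial cells clustered on 1 portion of their UMIs and tested on the other, 231 of 1093 with cells thinned to 2400 UMIs, and 100 of 335 with blood sums thinned to lymphatic depth. Without 1 library it lay between 331 and 756, lowest without library 1. Against endothelial cells 1 that range was 346 to 1041 around 1003, and against endothelial cells 2 it was 340 to 955 around 901, again lowest without library 1. DESeq2, the other size factors and equal weight of the blood populations gave 513, 784 and 979. Leaving out the lymphatic cells with at most 1 of 4 markers, an alternative chosen after seeing the data, gave 726. No cell exceeded the limit of 2% of UMIs from markers of tendon fibroblasts, pericytes, leukocytes and Schwann cells, so leaving out such cells changed nothing. Hemoglobin and muscle genes were not part of this limit. The hemoglobin genes took 165 to 6037 CPM in the blood sums, with the highest value in library 4.

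Without the replicate block, which pairs the sums of a library, 971 genes were called, 726 of them among the 755, and 986 and 893 against endothelial cells 1 and 2. Of the genes named in the text this block-free fit ended the calls of Ackr1 (-8.69, adjusted p = 0.19), Col4a1 (-0.91, adjusted p = 0.051), Fn1 (2.32, adjusted p = 0.065) and Selp (-9.60, adjusted p = 0.15), and it called Pecam1 (-0.69, adjusted p = 0.039) and Robo4 (-0.91, adjusted p = 0.034).

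A gene that failed the filter of an alternative has no value there and is not counted below. Of the 24 genes named by the rule, 4 had a value with blood sums thinned to lymphatic depth and 12 with cells thinned. Without library 1 it was 18, in the split of the UMIs 19, and with equal weight of the blood populations 23. Of the 292 alternative values of these genes, 291 kept their direction and call. The genes were chosen from the same counts for their call, steady direction and large fold, so this count was largely fixed by the choice. Other named genes had 1221 such values, of which 1126 kept both, 73 lost the call, 10 gained it and 12 changed sign. Gata2 (-0.29) was 0.060 with equal weight of the blood populations, 0.019 without the block and -1.11 to 0.044 without 1 library. Hspa1a (0.21) was -0.92 by DESeq2, -0.12 without the filter and -1.29 to 0.84 without 1 library. Kdr (-0.32) was 0.037 with equal weight of the blood populations, 0.26 with thinned blood sums and 0.0073 with thinned cells. Nrp2 (0.48) was -0.070 with thinned cells. Slc2a1 (0.33) was -0.11 by DESeq2 and -0.049 without the filter. Apart from Hspa1a without library 2 (adjusted p = 0.036), none of these passed the test. The mean lymphatic share of endothelial cells, 9.73% ± 5.30 (SD, n = 4), was 2.88% of all cells without red blood cells, and 7.19 to 11.2% without 1 library. The lymphatic sums of libraries 2 to 4 hold 3 or 4 cells each, so a gene of low level can be at 0 there by counting alone.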

Other observations

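Genes that the report did not group were also low or high in single lists. Of the integrin genes, 7 of 20 passed the filter on low counts, with 2 higher and 2 lower in lymphatic cells (5.36% and 10.4% over all genes). Against endothelial cells 2 alone 1 was higher and 0 were lower (6.07% and 12.5% over all genes). Itga1, a collagen-binding subunit, fell from 304 ± 96.8 to 52.6 ± 62.8 CPM (SD, n = 4, -2.25, adjusted p = 2.8e-05 by edgeR), and Itga6, a laminin-binding subunit, by 1.42 on the log2 scale. Itgb4, the laminin-binding partner of Itga6, rose by 1.35, with groups that overlapped. Itga6 did not pass the test without library 4 (-1.14, adjusted p = 0.066) and Itgb4 without library 1 (1.20, adjusted p = 0.3) and 2 (1.21, adjusted p = 0.056). Itga1 stood at -2.95 and Itga6 at -2.23 on the log2 scale without library 1.

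Of 22 hyaluronan and scavenger receptor genes, 7 passed the filter on low counts. Of these 2 rose, 1 fell (5.36% and 10.4% over all genes) and 4 did not pass the test, with a median of -0.25. Scarb1, which takes up lipid from HDL particles, fell from 704 ± 70.3 to 26.0 ± 42.6 CPM (SD, n = 4, -5.61, adjusted p = 6e-19 by edgeR), with 5 lymphatic UMIs in all. Hyal1, which degrades hyaluronan, rose by 1.56, adjusted p = 0.006, on 21 lymphatic UMIs. Ehd4, an ATPase of endosomes, fell from 892 ± 224 to 44.9 ± 62.9 CPM (-3.58). Of 10 proliferation genes, 1 was tested and did not pass. Hyal1 did not pass the test without library 2 (1.21, adjusted p = 0.1). Ehd4 stood at -5.86 on the log2 scale without library 1.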
